A study of Mus musculus with 6 samples.

Results

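Cytochrome P450 enzymes outside the Cyp1 family form the subject here, read in isolated mouse pancreatic islets with and without CMPF. The members were the genes whose symbol on the array starts with Cyp and a digit. Cyp1a1, Cyp1a2, Cyp1b1, Cyp2s1 and Cyp51 were left out by the same rule. Of 18193 genes with a probe set of their own, 68 were members: 34 in family Cyp2, 5 in Cyp3, 13 in Cyp4 and 16 in other families. The rule rests on gene symbols, and on signal only for picking the brightest probe set of each gene.

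The study placed islets of male CD1 mice aged 8 weeks in overnight culture and then treated them for 24 hours. The vehicle group (0.1% ethanol) and the CMPF group (200 uM) each held 3 arrays, numbered 1 to 3. CMPF is a metabolite of furan fatty acids that circulates in plasma. Values are log2 signals from RMA, a method that sets all arrays to 1 distribution, so a difference of 1 is a doubling of signal. Whether samples 1, 2 and 3 of a group were separate animals or cultures is not stated, so every p-value rests on a spread among samples that may be technical.

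P450 enzymes are heme proteins that insert oxygen into lipids, steroids and foreign compounds, using electrons passed on by a reductase or a ferredoxin. Many Cyp2 and Cyp3 enzymes clear drugs and toxins in the liver, and some Cyp2 enzymes turn arachidonic acid into epoxides. Cyp4 enzymes hydroxylate fatty acids and eicosanoids at the omega end, the first step of a side route of fatty acid breakdown, and several Cyp4a genes are targets of PPAR alpha. The other families mostly build or break down steroids, bile acids, vitamin D and retinoic acid.

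Islet identity was clear on all arrays. The 8 measured markers of alpha, delta and PP cells had a median level of 13.70, and 9 of 9 measured beta cell markers lay above the median of all genes. Acinar markers, from the surrounding exocrine tissue, were also high. Their mean ran from 10.24 to 12.01 on the vehicle arrays and from 11.10 to 12.06 on the CMPF arrays, with 17 of 18 measured genes above the median of all genes. Stellate and mesenchymal markers ran from 8.67 to 9.25 and from 8.31 to 9.51. In RNA from whole islets, fewer cells of a type and less RNA per cell cannot be told apart.

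Most P450 genes were dim in islets. RMA values carry no detection call, so 39 olfactory receptor genes, a family not known for a role in islets, served as a reference for dim signal. Probe sets differ in affinity, so a signal places a member against that reference and does not rank members by abundance. The median signal of the members was 4.04, against 6.42 for all genes and 3.64 for the olfactory receptor genes. Only 17 of 68 members (25%) lay above the 95th percentile of the olfactory receptor genes, 5.14, where 66.4% of all genes did. By family these were 6 of 34 in Cyp2, 0 of 5 in Cyp3, 4 of 13 in Cyp4 and 7 of 16 in the others. The members nearest to that line were Cyp27a1 (5.17) above it and Cyp46a1 (5.11) below it. These levels rest on the brightest probe set of each gene. Other probe sets lay below the line for Cyp2b10 (3.52 and 3.14), Cyp2d13 (2.64), Cyp2u1 (4.17) and Cyp27a1 (2.47). The dimmest sets of Cyp20a1 (4.82) and Cyp7b1 (2.64) did too. For Cyp2d22, Cyp2j6, Cyp21a1, Cyp4f16 and Cyp4v3 the other set also lay above the line. The 8 members above the median of all genes were Cyp20a1, Cyp4v3, Cyp2j6, Cyp7b1, Cyp39a1, Cyp21a1, Cyp4f13 and Cyp4f16.

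**Figure D1:**
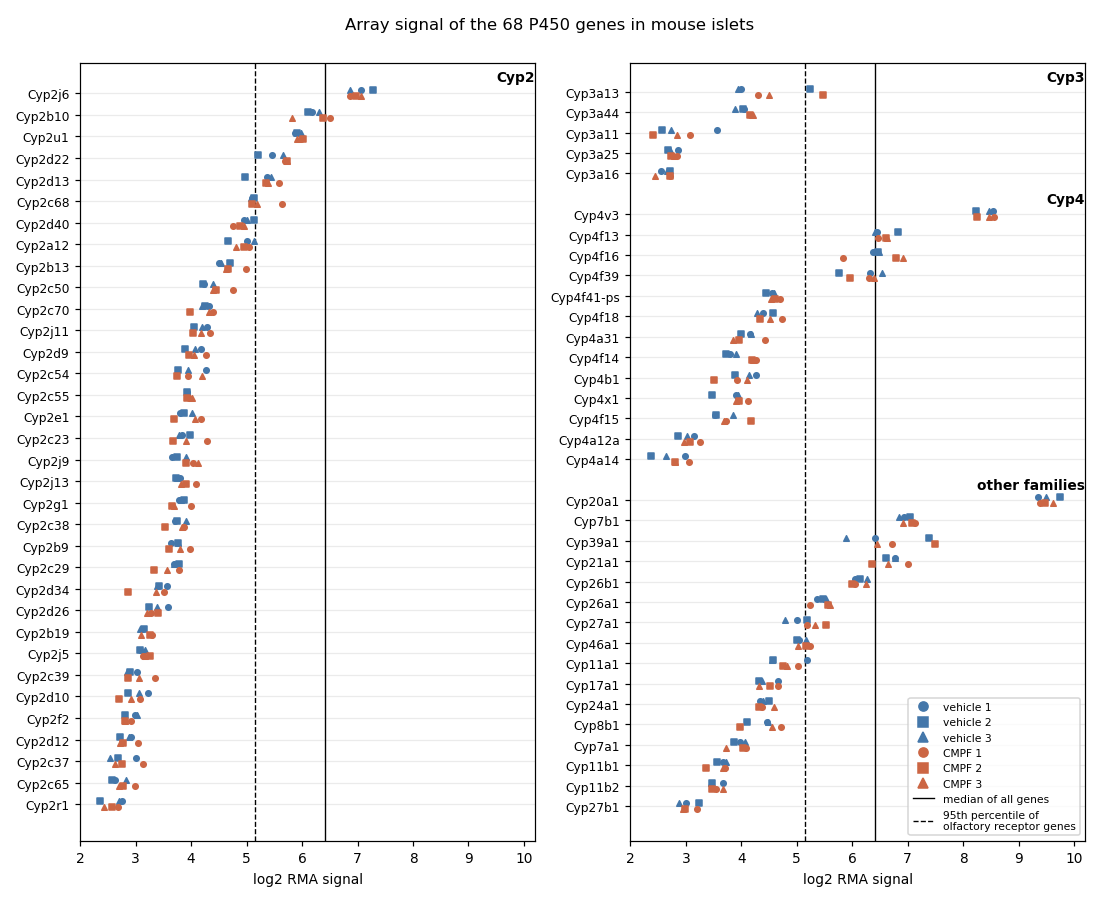
Log2 RMA signal (horizontal axis) of each of the 68 P450 genes on the 6 arrays, by family and ordered by mean signal; vehicle arrays are blue, CMPF arrays red, and marker shapes give the replicate number. The dashed line is the 95th percentile of 39 olfactory receptor genes (5.14) and the solid line the median of all genes (6.42); 17 members have a mean above the dashed line and 8 above the solid line.

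Most member promoters held few CG dinucleotides, the sites of DNA methylation. RefSeq promoter windows on GRCm38.p6, from 250 bases before to 50 after a start and read on the gene's strand, were at hand for 47 members (the first start listed for each). A window of a member held a median of 2 CG dinucleotides, against 17 for 14368 genes on the array. Windows with 4 or fewer CG made up 72.3% of those of members and 18.5% of those of array genes. The Cyp3 windows were the poorest, with 1 or 2 each, and the windows of the families outside Cyp2, Cyp3 and Cyp4 the richest, with a median of 9.5. The 11 members with a window and a signal above the olfactory reference had a median of 9, and the 36 at or below it a median of 2. Array genes split in the same way had medians of 21 and 6, so the split among members followed that of all genes at a lower count. Exceptions ran both ways. Cyp46a1, with 31 CG, and Cyp2r1, with 22, were at or below the reference, while 4 of the 11 above it held 4 or fewer, with 2 each for Cyp2c68 and Cyp4f16 and 4 each for Cyp2b10 and Cyp2j6.

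Windows of 4 members are printed below, with every CG in capitals. Cyp20a1 and Cyp4v3 had the brightest probe sets among members, and Cyp4f14 and Cyp27a1 had the smallest p-values for CMPF against vehicle.
Cyp20a1, chr1:60343050-60343349, plus strand: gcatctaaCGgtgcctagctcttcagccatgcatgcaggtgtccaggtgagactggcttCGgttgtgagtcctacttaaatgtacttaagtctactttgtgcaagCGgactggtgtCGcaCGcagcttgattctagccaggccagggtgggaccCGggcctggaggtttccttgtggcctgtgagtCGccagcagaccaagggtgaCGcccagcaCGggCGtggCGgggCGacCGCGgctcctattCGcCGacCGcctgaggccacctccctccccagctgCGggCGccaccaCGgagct
Cyp4v3, chr8:45333114-45333413, minus strand: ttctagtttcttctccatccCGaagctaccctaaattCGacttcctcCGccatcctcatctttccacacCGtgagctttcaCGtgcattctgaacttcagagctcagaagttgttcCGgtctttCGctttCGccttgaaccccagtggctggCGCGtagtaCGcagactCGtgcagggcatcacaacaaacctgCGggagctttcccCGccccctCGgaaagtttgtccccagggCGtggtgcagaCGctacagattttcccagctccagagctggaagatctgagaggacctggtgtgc
Cyp4f14, chr17:32917307-32917606, minus strand: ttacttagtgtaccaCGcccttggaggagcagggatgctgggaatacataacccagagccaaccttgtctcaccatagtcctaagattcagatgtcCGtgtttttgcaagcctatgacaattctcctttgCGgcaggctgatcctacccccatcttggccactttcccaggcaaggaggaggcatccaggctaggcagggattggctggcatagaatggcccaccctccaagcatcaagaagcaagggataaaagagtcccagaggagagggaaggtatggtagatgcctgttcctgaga
Cyp27a1, chr1:74713285-74713584, plus strand: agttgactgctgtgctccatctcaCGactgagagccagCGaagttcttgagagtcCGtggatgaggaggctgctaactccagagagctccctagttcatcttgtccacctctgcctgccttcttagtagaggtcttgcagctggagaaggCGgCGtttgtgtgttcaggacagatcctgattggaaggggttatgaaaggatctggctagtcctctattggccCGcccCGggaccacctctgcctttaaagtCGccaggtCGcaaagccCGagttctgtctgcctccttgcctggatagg
The Cyp20a1 window holds 20 CG and the Cyp4v3 window 17, the Cyp27a1 window 10 and the Cyp4f14 window 3.

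Nuclear receptors such as PPAR alpha, bound to RXR, recognise direct repeats of the motif AGGTCA. The repeat with 1 base between, AGGTCANAGGTCA, was sought on both strands and was found in 0 of 47 member windows and in 0.0418% of array genes' windows. The motif alone, also on both strands, was in 12 of 47 (25.5%), against 13.9% of array genes. All 12 were Cyp2 or Cyp3 genes, and 0 of 8 Cyp4 windows held it. By signal it was in 12 of 36 windows of members at or below the olfactory reference (33.3%), against 17.8% of such array genes. Above the reference it was in 0 of 11, against 12.0%. The motif TATAAA on the gene's strand was in 12 of 47 (25.5%), against 6.49% of array genes, with 3 of 5 Cyp3 windows and 0 of 8 Cyp4 windows among them. A match of letters is not a binding site, and such short windows leave out distal elements.

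**Figure D2:**
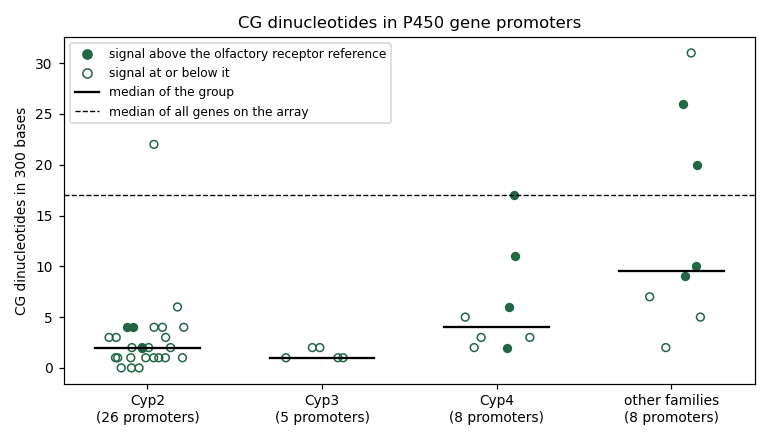
Number of CG dinucleotides in the 300-base promoter window (vertical axis) of 47 P450 genes by family, 1 point per gene, spread sideways only for legibility; filled points are genes whose signal lay above the olfactory receptor reference. Family medians (bars) were 2, 1, 4 and 9.5, all under the dashed line at 17, the median of 14368 genes on the array.

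The comparison of CMPF with vehicle asks which P450 genes differed after 24 hours with this furan fatty acid metabolite. No member passed the threshold. Limma called 0 of 68 members at an adjusted p under 0.05, as for all 18193 genes (0 called, 0.0%), with a smallest adjusted p of 0.99995. With the replicate number as a block, limma again called 0, with a smallest adjusted p of 0.979. An unadjusted p under 0.05 was reached by 3 members (4.41%; background 1.13%), Cyp4f14, Cyp27a1 and Cyp2j9. With the block it was reached by 7 (10.3%; background 3.8%), which added Cyp2d22, Cyp3a13, Cyp39a1 and Cyp4b1. Both shares were above the background, on few genes. Among members at or below the olfactory reference the shares were 3.92% without and 7.84% with the block. All such genes gave 2.18% and 5.51%. Above the reference the members gave 5.88% and 17.6%, against 0.596% and 2.94% of all such genes. An exact permutation test of 3 arrays against 3 cannot go below 0.1.

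The differences were small. The median over the members was 0.04 log2 units, against 0.0018 for all genes, and the range ran from -0.25 for Cyp4b1 to 0.41 for Cyp4f14. None of the 68 differed by 1.5-fold, which 21 genes did in all (0.115%). For 66 members the 95% interval lay within 1 log2 unit of 0, so a doubling or more of signal lay outside it (97.1%; background 98.1%). The exceptions were Cyp3a13 and Cyp39a1, with upper limits of 1.35 and 1.28 in this fit without the block. With the replicate number as a block their intervals ran from 0.14 to 0.59 and from 0.08 to 0.57. Among members 47 of 68 (69.1%) had a positive difference, against 50.7% of all genes. Among members above the olfactory reference 13 of 17 (76.5%) were positive, against 46.0% of all genes above it. Among members at or below it 34 of 51 (66.7%) were positive, against 60.2% of all such genes. The 6 members whose arrays did not overlap between groups (8.82%; background 4.52%) were all higher with CMPF (background 2.41% higher, 2.11% lower). They were Cyp4f14, Cyp27a1, Cyp2d22 and Cyp3a44, and Cyp2j13 and Cyp2c55, the last pair named after their values were seen. Of all genes at or below the olfactory reference 6.13% did not overlap, 266 of them higher and 109 lower, against 7.84% of members there. Above the reference the shares were 3.70% of all genes and 11.8% of members.

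Arrays of the same number deviated together, so each number was read as a pair. Of the members 14 were higher with CMPF in all 3 pairs (20.6%; background 11.8%) and 5 were lower (7.35%; background 11.1%). All genes at or below the olfactory reference also leaned upward, with 14.02% higher and 7.59% lower, against 19.61% and 9.80% of members there. Above the reference 10.61% of all genes were higher and 12.89% lower, against 4 and 0 of the 17 members. The median over members was 0.12 in pair 1, 0.05 in pair 2 and 0.01 in pair 3. CMPF 1 was the highest of the 6 arrays for 31 of 68 members (45.6%), where it was so for 23.2% of all genes and 36.8% of genes at or below the olfactory reference. Without CMPF 1 the median over members was -0.0020. The part of that array in the positive lean was not tested beyond this.

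**Figure D3:**
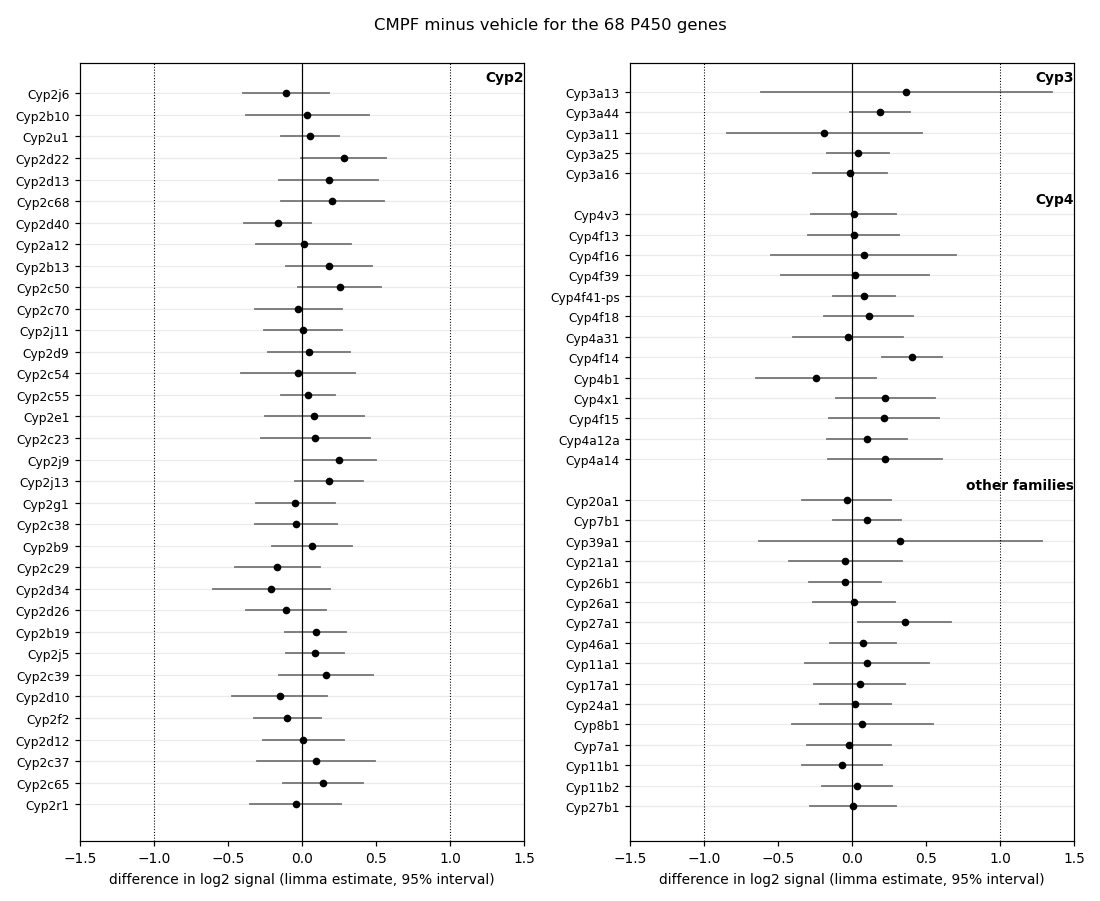
Difference between CMPF and vehicle in log2 signal (horizontal axis) for each of the 68 P450 genes, as the limma estimate (point) with its 95% interval (line), in the same order as the plot of signals. Dotted lines mark 1 log2 unit either way. In this fit without the replicate block 66 intervals lie within them, and those of Cyp3a13 and Cyp39a1 reach past the upper one.

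The Cyp4 family held both the highest and the lowest difference. Its median was 0.08, with 11 of 13 positive, and 2 members were higher and 1 lower in all 3 pairs. Cyp4f14, which hydroxylates leukotrienes and fatty acids, read 3.79, 3.73 and 3.91 on vehicle arrays 1 to 3 and 4.26, 4.19 and 4.20 on CMPF arrays 1 to 3. All CMPF values lay above all vehicle values, by more than the spread within either group. The difference was 0.41 (SE 0.0864; 95% interval 0.20 to 0.61), a 1.33-fold higher signal, with the second smallest p-value of 18193 genes. It did not pass after adjustment over all genes (adjusted p = 0.99995 in limma), and the signal was below the olfactory reference on every array. Leaving out any array or pair kept it between 0.37 and 0.46.

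Its neighbour on the chromosome, Cyp4f13, a fatty acid hydroxylase, read 6.44, 6.83 and 6.42 with vehicle and 6.47, 6.61 and 6.63 with CMPF. The groups overlapped and the difference was 0.0090 (95% interval -0.30 to 0.32). Cyp4f16, another gene of the same subfamily on that chromosome, read 6.38, 6.47 and 6.48 with vehicle and 5.84, 6.79 and 6.92 with CMPF. CMPF 1 was the lowest array and CMPF 2 and 3 the highest, so the difference of 0.08 (SE 0.267) hid pair differences of -0.54, 0.32 and 0.45. Without CMPF 1 it was 0.42 and without CMPF 3 -0.13. The other single-gene probe set of Cyp4f16, differed by -0.05. Cyp4f39, a hydroxylase of very long fatty acids known from skin, differed by 0.02 (SE 0.213). The dim Cyp4f15 and Cyp4f18 differed by 0.22 and 0.11, and the pseudogene Cyp4f41-ps by 0.08.

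Cyp4v3, a hydroxylase of medium-chain and polyunsaturated fatty acids, lay far above the olfactory reference on every array. It read 8.53, 8.24 and 8.47 with vehicle and 8.56, 8.24 and 8.47 with CMPF. Each CMPF array lay within 0.03 of the vehicle array of its number, and its difference had a 95% interval of -0.28 to 0.30. Its second probe set differed by 0.10 (95% interval -0.19 to 0.40). Cyp4a14, a PPAR alpha target, and Cyp4a12a were below the olfactory reference on every array. Cyp4a14 read 2.99, 2.37 and 2.64 with vehicle and 3.06, 2.81 and 2.80 on the CMPF arrays, which was higher in all 3 pairs with overlapping groups (0.22, SE 0.165; 0.38 without vehicle 1 and 0.07 without vehicle 2). Cyp4a12a differed by 0.10 (SE 0.115) and Cyp4a31 by -0.03 (SE 0.157). Cyp4a10 is on the array only in a probe set shared with Cyp4a31 and was given no value of its own. Cyp4b1, which acts on short fatty acids and lung toxins, read 4.26, 3.89 and 4.13 with vehicle and 3.93, 3.50 and 4.10 with CMPF. It was lower in all 3 pairs, with overlapping groups, by -0.25 (SE 0.173; 0.097 with the block), and by -0.08 without CMPF 2. Cyp4x1, known mainly from brain, differed by 0.22 (SE 0.143).

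**Figure D4:**
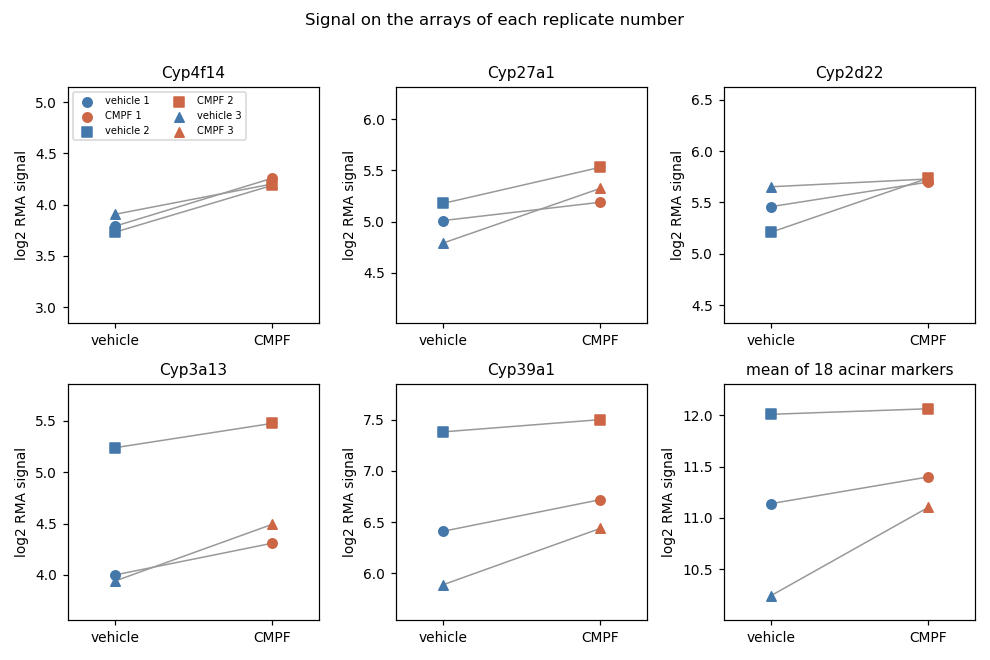
Log2 RMA signal (vertical axis, the same span in each panel) of 5 P450 genes and the mean of 18 acinar marker genes on the vehicle and CMPF arrays, with lines joining arrays of the same replicate number. The groups do not overlap for Cyp4f14, Cyp27a1 and Cyp2d22, while Cyp3a13, Cyp39a1 and the acinar mean differ more between replicate numbers than between groups and are highest on both arrays of number 2. The range of the means of replicate numbers exceeds the group difference for 55 of 68 members (80.9%) and for 87.5% of all genes.

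In Cyp3, Cyp3a13, an enzyme of gut and liver, varied more over the 6 arrays than any other member (SD 0.64). It read 3.999, 5.24 and 3.94 with vehicle and 4.31, 5.48 and 4.49 with CMPF. Both arrays of number 2 stood well above the other 4, and the groups overlapped, yet CMPF was higher in each pair. The difference was 0.37, with an SE of 0.420 without the block and 0.092 with it. Cyp39a1, which hydroxylates an oxysterol, had the second largest SD (0.62). Its values were 6.41, 7.38 and 5.89 with vehicle and 6.72, 7.50 and 6.44 with CMPF, a difference of 0.33 (SE 0.407; 0.102 with the block). It was highest on the number 2 arrays and higher with CMPF in each pair. Within pairs 1 to 3 the differences were 0.31, 0.24 and 0.55 for Cyp3a13 and 0.31, 0.12 and 0.55 for Cyp39a1. Leaving out a whole pair gave 0.27 to 0.43 for Cyp3a13 and 0.21 to 0.43 for Cyp39a1. Leaving out 1 array of a pair also shifts a group mean by the level of that pair. For Cyp3a13 that gave 0.79 when vehicle 2 was dropped, 0.0070 for CMPF 2 and 0.14 for vehicle 3. For Cyp39a1 the same 3 omissions gave 0.74, 0.02 and -0.01.

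The mean of the acinar markers moved with these genes. It was 11.14, 12.01 and 10.24 on the vehicle arrays and 11.40, 12.06 and 11.10 on the CMPF arrays. It too was highest at number 2 and higher with CMPF in each pair. Of 18 measured acinar genes 13 were higher (72.2%; background 11.8%) and 1 lower (background 11.1%) in all 3 pairs. The mean of 13 duct markers was also highest at number 2, with 8.88, 9.52 and 8.63 on vehicle arrays and 8.76, 9.36 and 8.95 on CMPF arrays. It was higher with CMPF in pair 3 only. The part of acinar or duct RNA in the values of Cyp3a13 and Cyp39a1 was not tested.

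Cyp3a11, the main Cyp3a enzyme of mouse liver, had the third largest SD (0.41), at a signal below the reference. It read 3.56, 2.58 and 2.73 with vehicle and 3.07, 2.40 and 2.83 with CMPF, highest on vehicle 1. The difference was -0.19 (SE 0.280), and 0.12 without vehicle 1. On the same array Alb, serum albumin, read 8.49, against 5.62 to 6.22 on the other 5, and Hpx, hemopexin, 8.86, against 4.59 to 6.08. The mean of 17 measured hepatocyte markers was 6.21 on vehicle 1, 5.60 and 5.91 on the other vehicle arrays and 5.60 to 5.80 on the CMPF arrays. Only 6 of the 17 were highest on vehicle 1, and without Alb and Hpx, which were singled out after their values were seen, the mean of the other 15 was 5.88 on vehicle 1, vehicle 3 and CMPF 3 alike. The part of hepatocyte RNA in the Cyp3a11 value was not tested. Vehicle 1 was the highest array for 11 members, among them Cyp3a11, Cyp2d10, Cyp2d26, Cyp2d34, Cyp2c54 and Cyp3a25. That was 16.2% of members, against 14.3% of all genes and 11.9% of genes at or below the olfactory reference. Cyp2e1, another liver enzyme, which oxidises ethanol, was not among them. It read 3.79, 3.87 and 4.02 with vehicle and 4.17, 3.68 and 4.08 with CMPF (0.08, SE 0.143). Cyp3a44 read 4.05, 4.04 and 3.89 with vehicle and 4.15, 4.16 and 4.21 with CMPF, without overlap (0.18, SE 0.0866). Cyp3a16 and Cyp3a25 differed by -0.01 and 0.04.

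Among the 34 Cyp2 genes the median difference was 0.04, with 22 positive, 7 higher and 4 lower in all 3 pairs. Cyp2j6, an epoxygenase of arachidonic acid, was the only one above the median of all genes. It read 7.06, 7.27 and 6.87 with vehicle and 6.86, 6.96 and 7.07 with CMPF, overlapping, with a difference of -0.11 (SE 0.124). A second probe set of Cyp2j6 differed by 0.20 (SE 0.128), so the direction depended on the probe set. Its dim relative Cyp2j9 read 3.65, 3.75 and 3.90 with vehicle and 4.03, 3.90 and 4.12 with CMPF. The groups met at vehicle 3 and CMPF 2, and the difference was 0.25 (SE 0.105). The other Cyp2j genes differed by 0.0063 (Cyp2j11), 0.18 (Cyp2j13) and 0.09 (Cyp2j5).

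Cyp2d22, of a family that clears drugs, read 5.46, 5.21 and 5.65 with vehicle and 5.70, 5.74 and 5.73 with CMPF. The 3 CMPF values were nearly equal and lay just above the highest vehicle value. The difference was 0.28 (SE 0.122; 0.105 with the block). A second probe set read 5.57, 5.71 and 5.41 with vehicle and 5.35, 5.67 and 5.67 with CMPF, a difference of 0.0019 (SE 0.128). With the mean of both probe sets the difference was 0.14. Cyp2c50 differed by 0.25 (SE 0.119), and by 0.14 without CMPF 1, which read 4.75 against 4.21 to 4.46 on the other 5 arrays. Cyp2c23, listed in older annotations as Cyp2c44, an epoxygenase of the kidney, differed by 0.09 (SE 0.157). Cyp2u1, which hydroxylates long fatty acids, read 5.87, 5.91 and 5.98 on the vehicle arrays and 5.98, 6.02 and 5.90 on the CMPF arrays, with a 95% interval from -0.15 to 0.25. Cyp2b10, the classic target of the receptor CAR, differed by 0.04 (SE 0.178), and its pairs by 0.32, 0.27 and -0.48.

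Of the remaining families the sterol hydroxylases came first. Cyp27a1, a mitochondrial enzyme that hydroxylates cholesterol for bile acid synthesis, read 5.01, 5.18 and 4.79 with vehicle and 5.19, 5.53 and 5.32 with CMPF. All 3 CMPF values lay above the vehicle values, with CMPF 1 just above vehicle 2. The difference was 0.35 (SE 0.134; 95% interval 0.04 to 0.67), a 1.28-fold higher signal, with an adjusted p = 0.99995 in limma. Its second probe set, with a mean signal of 2.47, far below the olfactory reference, differed by 0.32 (SE 0.120). Cyp7b1, the oxysterol hydroxylase of the same pathway, read 6.94, 7.04 and 6.85 on vehicle arrays and 7.13, 7.08 and 6.92 on CMPF arrays. It was higher in each pair, with overlapping groups (0.10, SE 0.0982). Its other probe sets differed by 0.04 and 0.08. The liver enzymes Cyp7a1 and Cyp8b1, of the main bile acid route, were dim and differed by -0.02 (SE 0.121) and 0.07 (SE 0.203). Cyp46a1, which hydroxylates cholesterol in neurons, differed by 0.07 (SE 0.095).

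Cyp20a1, a P450 without a settled substrate, gave the brightest probe set of the family. It read 9.34, 9.75 and 9.50 with vehicle and 9.38, 9.47 and 9.63 with CMPF. The groups overlapped, and its difference had a 95% interval of -0.34 to 0.26. The retinoic acid hydroxylases Cyp26a1 and Cyp26b1 lay above the olfactory reference. Cyp26a1 had 5.45 ± 0.08 in the vehicle group against 5.47 ± 0.20 in the CMPF group, and Cyp26b1 6.15 ± 0.10 against 6.10 ± 0.13 (each mean ± SD, n = 3). Their 95% intervals ran from -0.27 to 0.29 and from -0.29 to 0.19. The vitamin D enzymes were dim and differed little, by 0.02 for Cyp24a1, 0.0039 for Cyp27b1 and -0.04 for Cyp2r1, with standard errors between 0.102 and 0.132. Of the steroid hydroxylases Cyp21a1 had a mean of 6.71 (SD 0.09) in the vehicle group and 6.67 (SD 0.32) in the CMPF group (-0.05, SE 0.162). CMPF 1 and CMPF 2 were its highest and lowest arrays. Cyp11a1, Cyp17a1, Cyp11b1 and Cyp11b2 differed by 0.10, 0.05, -0.07 and 0.03. Cyp11a1 moved to 0.30 without vehicle 1, its highest array, and to -0.0037 without vehicle 3. Of 6 measured markers of steroid-producing cells 3 lay above the olfactory reference on all arrays (Star, Scarb1 and Nr5a1) and 3 below it (Mc2r, Hsd3b1 and Nr0b1).

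The probe sets of 1 gene did not always give the same answer. Of the 17 members with more than 1 single-gene probe set, all of those sets differed in the same direction for 8. Near-identical relatives are a further limit, since short probes can bind transcripts of a close paralog, and 4 more probe sets listed for several P450 genes at once were left out.

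Genes that work with P450 enzymes were read from lists. None of the 9 lists had a gene past the threshold in either direction in the limma fit, as in the background (0.0%). Of 13 listed redox partners 10 were measured, while Por, the P450 reductase, Fdxr and Fdx1l had no value here. Of the 10 measured, 9 lay above the median of all genes, and the median difference of the 10 was 0.03. Cyb5a, cytochrome b5, differed by 0.10 (SE 0.109) and the reductase gene Cyb5r1 by 0.09 (SE 0.079), and 3 were higher and 0 lower in all 3 pairs. Heme synthesis and breakdown genes had a median of 0.03 over 12, with Blvrb, a biliverdin reductase, at 0.13 (SE 0.088). The 17 measured nuclear receptors and other transcription factors that control P450 genes had a median of -0.03. Of these 5 had a positive and 12 a negative difference. Nr1i2, the drug receptor PXR, differed by 0.12 (SE 0.097) at a signal of 4.09, and Nr0b2, the repressor SHP, by 0.26 (SE 0.196). Ahr, the aryl hydrocarbon receptor, differed by -0.20 (SE 0.175).

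The 23 measured PPAR alpha targets other than P450 genes had a median of 0.12, with 10 higher (43.5%) and 0 lower in all 3 pairs (background 11.8% and 11.1%). The mean of this list was 6.78, 7.14 and 6.80 on the vehicle arrays and 6.80, 7.31 and 6.96 on the CMPF arrays. Like the acinar mean given above, it was highest at number 2 and higher with CMPF in each pair, and the part of acinar RNA in it was not tested. Ucp3, a mitochondrial carrier, and Plin4 and Plin5, lipid droplet proteins, differed by 0.25, 0.24 and 0.24 (SE 0.107, 0.122 and 0.130). Enzymes that follow omega-hydroxylation had a median of 0.0082 over 11, with 0 higher and 1 lower in all 3 pairs, and Crat, the carnitine acetyltransferase, differed by 0.20 (SE 0.139). Epoxide hydrolases and eicosanoid genes had a median of -0.03 over 15, with the lipoxygenase Alox12 at 0.20 (SE 0.094) and Ephx3, an epoxide hydrolase, at -0.18 (SE 0.129). Retinoid genes had a median of 0.04 over 16, 9 positive and 7 negative. Stra6l, a retinol-binding protein receptor, differed by 0.25 (SE 0.154), Rarg by -0.14 (SE 0.116) and Aldh1a2 by -0.26 (SE 0.227). Oxysterol and bile acid genes had a median of -0.0016 over 15, with Acox2, the bile acid oxidase, at -0.14 (SE 0.132). Steroid enzymes had a median of 0.05 over 13, with 4 higher and 3 lower in all 3 pairs, and Hsd11b2, which inactivates glucocorticoids, at -0.12 (SE 0.082).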

How the data were processed

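RNA of isolated mouse islets was read on 6 Affymetrix mouse arrays, 3 per group. The authors deposited log2 signals. The tools named in the submitters' processing notes are RMA and Affymetrix Expression Console 1.1, and their settings were not given in the sources used here. RMA equalises total signal between arrays and compresses differences of dim genes. Array medians lay between 5.08 and 5.15, and the number of arrays limits the precision.

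Of 45101 probe sets 34945 had 1 gene symbol and 932 several. A gene was represented by the brightest of its single-gene probe sets, averaged across 6 arrays, and dim genes were kept. All 68 members matched RefSeq (GRCm38.p6) by Entrez ID, 66 as protein coding, and 0 symbols changed. CMPF was compared with vehicle over all 18193 genes with limma 3.58.1 (lmFit and eBayes; R 4.3.3). Tests were two-sided, p-values were adjusted by Benjamini-Hochberg, and the threshold was 0.05. Differences are CMPF minus vehicle. The fit was tested on simulated data. As a pairing check, each array's deviation from its group mean was correlated across genes: same-numbered arrays gave 0.488 to 0.638 and differently numbered ones -0.555 to 0.0885. The numbers were taken as pairs on these correlations alone. Standard errors are without the block unless stated.

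The members and lists were chosen with earlier results of these data known. Members were named where above the median of all genes, among the 3 smallest p-values of each family group or the 3 largest SDs, or by known role, and list genes among the 3 smallest p-values; members named beyond that rule were named after their values were seen. Alternatives were the replicate block, arrays or pairs left out, centring on array medians, repeated quantile normalization, means over probe sets, filters on dim genes, an intensity trend and array weights.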

Additional observations from a re-analysis of the deposited data

How the results depend on the processing

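No member was called under the 17 alternative settings. With the replicate block 7 members had an unadjusted limma p under 0.05, and the block changed no call. In fits without the block that count was 3 on all arrays, and 2 to 4 with 1 array or 1 pair left out. Those omissions kept the median over members between -0.0020 and 0.08. They kept the number of members with an interval within 1 log2 unit between 65 and 68. The Cyp2 median ran from -0.042 (without CMPF 1) to 0.089, Cyp3 from 0.0070 to 0.12, Cyp4 from 0.04 to 0.12 and the other families from 0.0034 to 0.06. Members without overlap numbered 10 to 22, a count that grows with fewer arrays by construction. Counts over all 3 pairs could not be formed there. The shares of all genes under these omissions are not given here, so these counts have no background to be read against. The Cyp3 median was 0.016 after a second quantile normalization and 0.011 with array weights.

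Filters on dim genes tested fewer members, and the matching shares of all genes are not given here either. Above the 25th percentile of all genes 24 were left, of which 1 had an unadjusted p under 0.05, 2 did not overlap, 5 were higher and 1 lower in all 3 pairs, and 22 had an interval within 1 unit. The Cyp3 median there was 0.37 (Cyp3a13 alone) and that of the other families 0.070. Above the median 8 were left, with 0 under 0.05, 0 without overlap, 2 higher and 0 lower in all 3 pairs, 7 intervals within 1 unit and -0.11 for Cyp2 (Cyp2j6 alone). Of 427 differences of 31 named members 56 had another sign than in the report, 49 of them with an array or pair left out. By gene, 17 of the 31 named members had another sign in at least 1 setting. Signal near background limits the dim members, since RMA compresses their differences.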

Other observations

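The retinoid gene Aldh1a1, a retinaldehyde dehydrogenase, was chosen after its values were seen. It read 6.96, 8.05 and 5.29 on vehicle arrays 1 to 3 and 7.23, 8.44 and 6.21 on CMPF arrays 1 to 3. It was highest on both arrays of number 2 and higher with CMPF in each pair, as were Cyp39a1 and the acinar mean, whose part in it was not tested. The difference was 0.53 (SE 0.767; 0.136 with the block).

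The 4 probe sets listed for several P450 genes at once differed between -0.09 and 0.21.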
